A study of Mus musculus with 22 samples.

Results

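The genes described here encode the subunits of the mitochondrial oxidative phosphorylation machinery. They were chosen by platform symbol: those starting with Nduf, Uqcr or Atp5, those starting with Cox4 to Cox8, and Sdha, Sdhb, Sdhc, Sdhd and Cyc1. The rule found 83 genes among 11807 with a single symbol, or 135 of 22626 probe sets. By complex they were 34 genes of complex I, 4 assembly factors of complex I, 4 genes of complex II, 8 of complex III, 16 of complex IV and 17 of complex V. Where a gene had several probe sets, the brightest one over the 22 arrays stood for it, and 46 genes had only 1.

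RNA of mouse aortic endothelial cells, scraped from the intima of opened aortas, was hybridised to 22 Affymetrix arrays, 1 per sample. Fresh intima came from 4-week-old ApoE -/- mice (n = 4), labelled as hyperlipidemic before lesions, and from wild-type mice of that age (n = 6), both on chow and on the C57BL/6 strain. The other 12 samples came from wild-type C57BL/6 aortas kept 4 h in DMEM with 1% serum: with lipopolysaccharide at 4 ng/mL (LPS, n = 3), with oxidized low-density lipoprotein at 50 µg/mL (oxLDL, n = 3), with the oxidized phospholipid oxPAPC at 50 µg/mL (n = 3), or with medium alone (n = 3). The labels give no age for the incubated samples, nor the number of animals behind each array. All p-values below therefore reflect differences among arrays, which may be technical.

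Electrons from NADH enter the respiratory chain at complex I and those from succinate at complex II, pass through complex III and cytochrome c to oxygen at complex IV, and the proton gradient built on the way drives ATP synthesis by complex V. Most subunits are encoded in the nucleus and imported, while a small core set comes from mitochondrial DNA and is not among the genes chosen by the rule. Endothelial cells are known to make much of their ATP by glycolysis and to use mitochondria also for signalling and biosynthesis.

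All values are log2 signals after RMA. Within groups, array pairs had correlations of 0.977 to 0.991 over genes, which are not independent replicates. Apoe itself was between 3.04 and 3.23 in ApoE -/- intima, against 3.78 to 4.35 in fresh wild-type intima, but it lay below the 40th percentile of the array on all 22 arrays. The endothelial markers Pecam1 (11.30 to 11.37 in medium, 11.47 to 11.86 in fresh wild type) and Cdh5 were among the brighter genes in those groups. Myh11, which marks smooth muscle, was also among the brightest genes, at 9.93 to 11.02 in medium and 11.17 to 11.63 in fresh wild type. In bulk samples, fewer cells of a type and less RNA per cell cannot be told apart. Adipoq, which marks fat, stayed between 2.55 and 2.83 in medium and between 2.65 and 3.80 in fresh wild type, and the muscle creatine kinase Ckm between 3.75 and 3.95 in medium and between 3.71 and 3.97 in fresh wild type, all low on these arrays.

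Promoter sequences are shown for 6 genes on which the results below turn: the 3 genes for the c ring of ATP synthase, of which Atp5g1 was higher and Atp5g2 lower in medium and Atp5g3 was not called, the assembly factor gene Ndufaf4, which had the largest rise among the 83, Ndufv3, which had the largest fall, and Atp5k, whose fall had the smallest p. Each runs from 120 bases before to 30 bases after the start in RefSeq (GRCm38.p6), 5′ to 3′ on the gene's strand, in lower case. Capitals mark matches, on either strand, to letters bound in other studies by NRF1 (the 10 capitals in the Atp5g2, Ndufaf4 and Atp5k windows), by GABPA (CCGGAAG, printed as its reverse complement at the end of the Atp5k window) or by E-box factors (CACGTG). The windows are chr11:96075602-96075751 (minus strand) for Atp5g1, chr15:102671018-102671167 (minus) for Atp5g2, chr2:73911297-73911446 (minus) for Atp5g3, chr4:24897963-24898112 (plus) for Ndufaf4, chr17:31519995-31520144 (plus) for Ndufv3 and chr5:108434370-108434519 (minus) for Atp5k.
Atp5g1: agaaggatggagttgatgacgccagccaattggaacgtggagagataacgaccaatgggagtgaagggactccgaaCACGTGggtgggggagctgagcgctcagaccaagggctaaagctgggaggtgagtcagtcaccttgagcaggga
Atp5g2: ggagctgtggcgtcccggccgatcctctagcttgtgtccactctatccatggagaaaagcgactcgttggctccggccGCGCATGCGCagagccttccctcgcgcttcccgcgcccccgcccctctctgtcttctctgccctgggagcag
Atp5g3: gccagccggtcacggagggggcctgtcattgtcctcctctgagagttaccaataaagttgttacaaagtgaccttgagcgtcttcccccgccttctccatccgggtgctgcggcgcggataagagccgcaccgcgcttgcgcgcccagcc
Ndufaf4: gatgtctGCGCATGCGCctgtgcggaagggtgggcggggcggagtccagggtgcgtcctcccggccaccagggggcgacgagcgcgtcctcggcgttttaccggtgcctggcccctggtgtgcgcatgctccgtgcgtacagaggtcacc
Ndufv3: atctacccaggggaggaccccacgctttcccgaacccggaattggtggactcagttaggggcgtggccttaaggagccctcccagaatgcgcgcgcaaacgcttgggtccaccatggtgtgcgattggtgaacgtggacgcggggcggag
Atp5k: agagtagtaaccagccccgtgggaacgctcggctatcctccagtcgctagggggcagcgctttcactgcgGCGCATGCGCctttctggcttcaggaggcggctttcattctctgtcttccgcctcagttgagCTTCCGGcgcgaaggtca

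The windows of Atp5g2, Ndufaf4 and Atp5k each held the NRF1 letters, that of Atp5g1 held an E-box, and those of Atp5g3 and Ndufv3 held none of the letters searched. In the longer window described next, Atp5g3 also had an E-box, and Ndufv3 again had none of the letters. RefSeq promoter windows of 250 bases before to 50 after the start were matched for 67 of the 83 genes. The NRF1 letters stood in 7 of these 67 windows (10.4%), against 1.62% of 9425 windows of all genes on the array. The GABPA letters stood in 15 (22.4%, against 14.9%), the YY1 motif in 4 (5.97%, against 1.28%) and the E-box in 6 (8.96%, against 9.31%). Among the 41 matched genes that were lower in medium than in fresh intima, 3 windows held the NRF1 letters, 8 those of GABPA, 4 those of YY1 and 1 the E-box. Among the other 26 matched genes the numbers were 4, 7, 0 and 5. A match describes letters in a window and is neither a bound site nor a cause.

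Medium for 4 h against fresh wild type gave the most calls in these genes, most of them falls. Incubation and any difference in the source of the aortas, such as age, cannot be told apart in this comparison. Of 80 genes that passed the level filter, 48 were lower (60%) and 3 were higher (3.75%) in medium than in fresh wild-type intima (limma, adjusted p under 0.05), where 34.4% of all 7508 genes tested were called lower and 24.3% higher (58.7% in all). The median difference over all 83 genes was −0.45, against −0.13 over all genes tested, and 72 of the 83 were below 0. Scaling mattered for the zero point: cyclic loess and median centring moved the median of all genes to 0.00 and 0.02, and they left 42 and 39 of the oxidative phosphorylation genes lower, with 6 and 8 higher. Higher genes then made up 50.9% and 53.2% of all calls, against 41.4% with the values as deposited. Of the 51 genes called, 35 were called under every alternative tried.

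**Figure D1:**
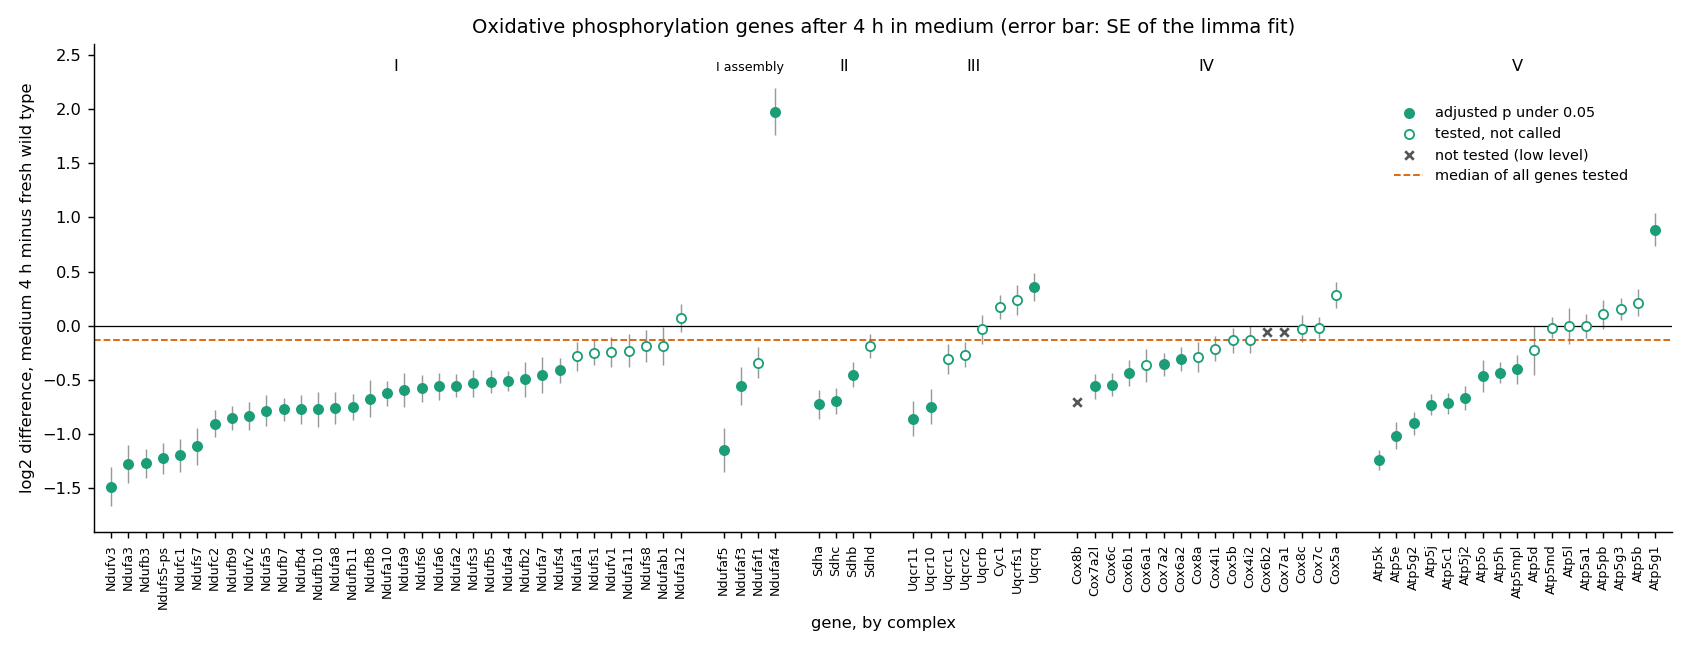
Log2 difference (medium for 4 h minus fresh wild type) of each of the 83 genes, by complex, with the SE of the limma fit as error bars and filled points for an adjusted p under 0.05. Complex I lies almost wholly below 0 and 27 of its 34 genes were lower, while complexes III and IV lie closer to the median of all genes tested (dashed line, −0.13); with the arrays rescaled, 42 (cyclic loess) or 39 (median centring) of the genes were lower instead of 48.

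Complex I, the entry point for electrons from NADH, had 27 of 34 genes lower and none higher, with a median of −0.61. Its share of lower genes was 79.4%, against 34.4% of all genes tested. Ndufb3, a subunit of the membrane arm, had log2 signals of 8.05, 8.09 and 8.11 in medium, against a lowest of 9.003, a median of 9.35 and a highest of 9.64 in fresh wild type. The groups were far apart and the 3 medium arrays nearly equal, and the difference was −1.27 ± 0.13 (limma, adjusted p = 2.18e-05). Ndufv3, a small subunit of the NADH-binding module, had 8.23, 7.80 and 8.43 in medium, against 9.42, 9.57 and 10.10 (lowest, median and highest) in fresh wild type. It showed the largest fall of the 83 genes (−1.48 ± 0.18, limma, adjusted p = 5.91e-05), to 35.8% of the wild-type level.

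Other large falls in complex I were those of Ndufa3 (−1.27 ± 0.18), Ndufc1 (−1.19 ± 0.15) and Ndufs7 (−1.11 ± 0.17), the last an iron-sulfur subunit of the catalytic core. Ndufs5-ps, which the annotation names a pseudogene, differed by −1.22 ± 0.14, and whether its probes read other transcripts was not tested. Split by role after the values were seen, 3 of 6 measured core subunits were lower (median −0.39) and 23 of 27 accessory subunits were lower (median −0.62). Ndufs1, Ndufv1 and Ndufs8, all core subunits, had −0.25, −0.24 and −0.19 and were not called. By main probe sets, the accessory gene Ndufa12 was the only complex I gene above 0 in the values as deposited, at 0.07 ± 0.13 (limma, adjusted p = 0.648). Ndufs8 was also above 0 under cyclic loess. This depended on the probe set chosen: the 2 other probe sets of Ndufab1 were at 0.25 and 0.21, against −0.19 for its main one.

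The 4 assembly factors of complex I did not move together. Ndufaf4, which is needed to build the complex, had 8.85, 8.78 and 8.58 in medium, against 6.29, 6.80 and 7.36 (lowest, median and highest) in fresh wild type. Every medium array was above every fresh one, and the difference was 1.97 ± 0.22 (limma, adjusted p = 2.76e-05), or 393% of the wild-type level. Its second probe set differed by 1.53 in the same direction. Ndufaf5, another assembly factor, was lower at −1.15 ± 0.20, and Ndufaf3 at −0.55 ± 0.18, though Ndufaf3 averaged below the 40th percentile in medium. Ndufaf1 differed by −0.34 ± 0.14 and was not called (limma, adjusted p = 0.0595).

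In complex II, succinate dehydrogenase, 3 of 4 genes were lower (75%, against 34.4% of all genes tested). The membrane anchor gene Sdhc had 6.97, 7.25 and 7.23 in medium, against 7.76, 7.80 and 8.13 (lowest, median and highest) in fresh wild type, with no overlap (−0.70 ± 0.12, limma, adjusted p = 6.06e-04). The catalytic flavoprotein gene Sdha differed by −0.72 ± 0.13 and the iron-sulfur gene Sdhb by −0.45 ± 0.12. The second anchor gene, Sdhd, differed by −0.18 ± 0.11 and was not called.

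Complex III had 2 of 8 genes lower and 1 higher, with a median of −0.15. These shares (25% lower and 12.5% higher) lay below those of all genes tested (34.4% and 24.3%). Uqcr10, a small subunit, was lower at −0.75 ± 0.16. Uqcr11, another small subunit, had 4.14, 3.95 and 4.38 in medium, against 4.76, 4.99 and 5.46 (lowest, median and highest) in fresh wild type (−0.86 ± 0.16, limma, adjusted p = 0.00111), and its medium values averaged below the 40th percentile. Uqcrq, a ubiquinone-binding subunit, had 6.66, 6.25 and 6.60 in medium, against 5.98, 6.15 and 6.31 in fresh wild type. Its ranges overlapped; its rise of 0.36 ± 0.13 (limma, adjusted p = 0.0309) was not called without medium replicate 9 (adjusted p = 0.138), medium replicate 11 (0.102), wild-type replicate 14 (0.0553) or wild-type replicate 15 (0.0521). The catalytic genes Cyc1 and Uqcrfs1 had 0.17 ± 0.11 and 0.24 ± 0.14 and were not called.

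Complex IV, cytochrome c oxidase, had 5 of 13 tested genes lower and none higher. Its share of lower genes, 38.5%, was near the 34.4% of all genes tested. Of its 16 genes, 3 (Cox8b, Cox6b2 and Cox7a1, all muscle or testis forms) lay below the filter. Cox6c had 10.20, 10.07 and 9.96 in medium, against 10.53, 10.63 and 10.72 (lowest, median and highest) in fresh wild type, with no overlap (−0.54 ± 0.10, limma, adjusted p = 0.00102). Cox7a2l was lower at −0.56 ± 0.12, Cox6b1 at −0.43 ± 0.12 and Cox7a2 at −0.36 ± 0.11. With median centring Cox6b1 (limma, adjusted p = 0.0721) and Cox7a2 (0.143) were not called, and Cox7a2 was not called either without medium replicate 10 (0.0684) or 11 (0.0614). Cox6a2, the muscle form of a regulatory subunit, was lower at −0.30 ± 0.11 (limma, adjusted p = 0.0368), but was not called under cyclic loess (adjusted p = 0.467) or median centring (0.272), nor without any 1 of the 3 medium arrays (0.0516 to 0.148) or wild-type replicate 8, 13, 14 or 15 (0.0504 to 0.0638). Ndufa4, which carries a complex I symbol but is known as a cytochrome oxidase subunit, was lower at −0.51 ± 0.09.

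Of the 7 tested isoform genes of complex IV, 3 were lower (Cox6a2, Cox6b1 and Cox7a2, above) and 4 were not called. Cox4i1, the broad form of subunit 4, and Cox4i2, its lung and hypoxia-linked form, had −0.21 ± 0.11 and −0.13 ± 0.12, and neither was called; Cox4i2 was above 0 under cyclic loess (0.06) and median centring (0.02). Cox6a1, the broad partner of Cox6a2, had −0.36 ± 0.15 and Cox8a −0.29 ± 0.14, again without a call. Cox5a and Cox5b, single genes in mammals, had 0.28 ± 0.12 and −0.13 ± 0.11 and were not called, and Cox5b was above 0 under median centring.

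Complex V, ATP synthase, had 9 of 17 genes lower (52.9%) and 1 higher (5.88%), against 34.4% and 24.3% of all genes tested. Atp5k, a small membrane subunit linked to dimer formation, had 7.43, 7.53 and 7.53 in medium, against 8.64, 8.76 and 8.81 (lowest, median and highest) in fresh wild type. This was the smallest adjusted p of the 83 genes (−1.24 ± 0.10, limma, adjusted p = 2.98e-06), at 42.4% of the wild-type level, and its second probe set differed by −1.25. Atp5e, a subunit of the central stalk, was lower at −1.01 ± 0.12, Atp5j at −0.73 ± 0.10 and Atp5c1 at −0.71 ± 0.10. The genes of the catalytic head, Atp5a1 and Atp5b, had 0.00 ± 0.11 and 0.21 ± 0.13 and were not called.

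The 3 c-ring genes encode the same mature protein behind different import signals. Atp5g1 had 5.54, 5.90 and 5.29 in medium, against 4.47, 4.67 and 4.96 (lowest, median and highest) in fresh wild type (0.89 ± 0.15, limma, adjusted p = 5.18e-04). Atp5g2 had 6.11, 6.12 and 6.07 in medium, against 6.76, 7.05 and 7.07 in fresh wild type (−0.90 ± 0.10, limma, adjusted p = 4.19e-05). Atp5g3 had 10.22, 10.27 and 10.37 in medium, against 10.01, 10.14 and 10.22 in fresh wild type, with overlapping ranges and no call (0.16 ± 0.10, limma, adjusted p = 0.193). The ranges of Atp5g1 and Atp5g2 did not overlap between groups, in opposite directions. Atp5g1 was near background in fresh wild type, on average 0.03 above the 40th percentile.

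**Figure D2:**
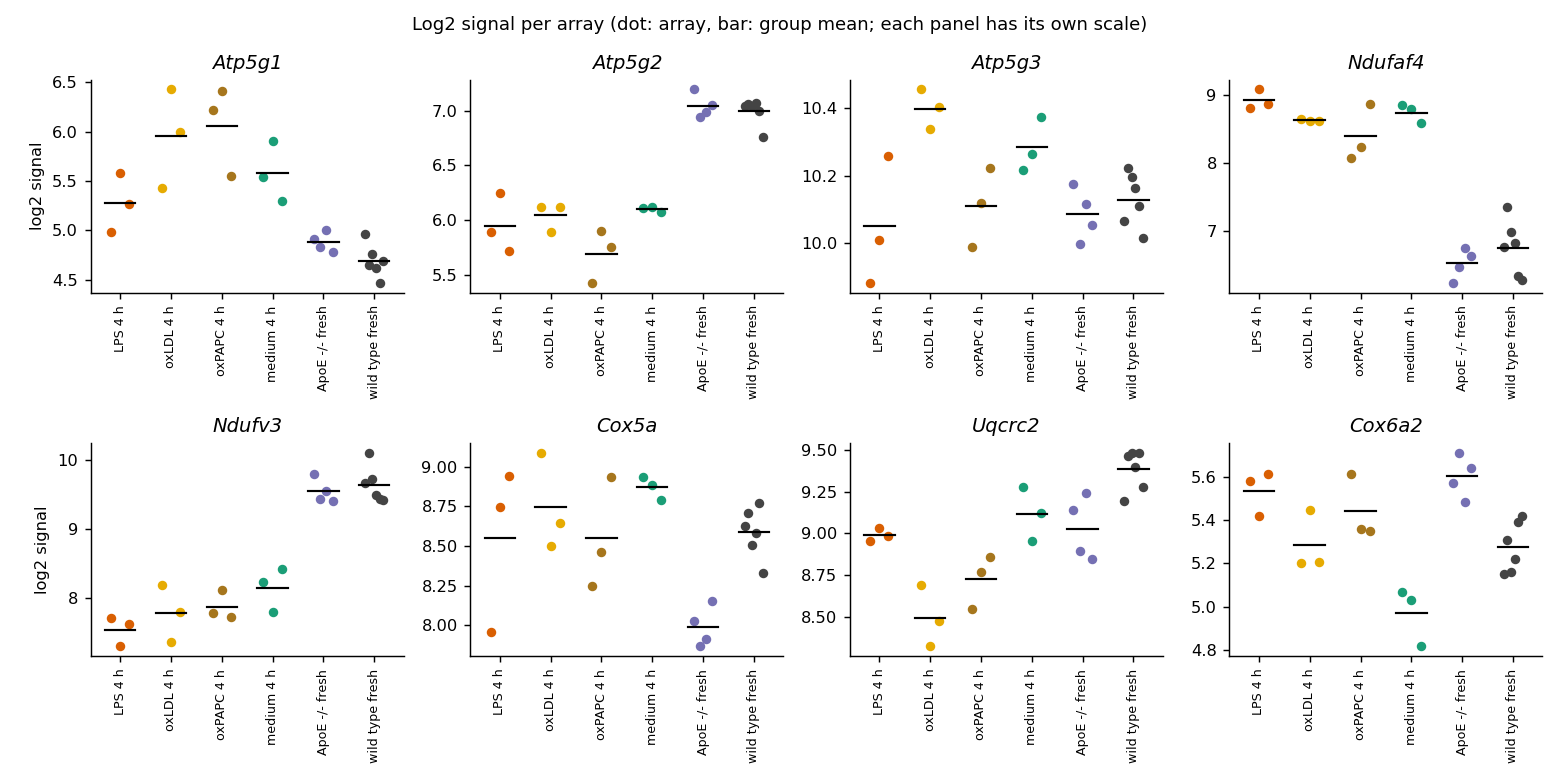
Log2 signal of single genes on every array, with a dot per array and a bar for the group mean, each panel on its own scale. Ndufv3 and Atp5g2 lie lower and Ndufaf4 higher in the 12 incubated samples than in fresh wild type, with no overlap.

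For 34 of the 48 falls, all 12 incubated arrays, those of medium and of the stimulated groups, lay below all 6 fresh wild-type arrays. For the other 14 this did not hold, and 1 array, of medium or of any stimulus, was enough for that. The 12 include the medium arrays by which the 48 were chosen, so this share is in part fixed in advance. Over all 83 genes it held for 34 (41.0%), against 10.8% of all 11807 genes. Among the 7859 genes that passed the filter it held for 15.5%. Among the 14 were Ndufv2, whose LPS arrays (8.29 to 8.36) lay within the fresh wild-type range of 8.17 to 8.65, and Ndufb5, whose oxLDL arrays (9.59 to 9.78) lay within that of 9.58 to 9.88. The oxPAPC arrays of both genes lay below these ranges (7.92 to 8.10 for Ndufv2 and 8.97 to 9.38 for Ndufb5). By complex all 12 lay below for 21 of 34 genes of complex I, 3 of 4 of complex II, 1 of 8 of complex III, 3 of 16 of complex IV, 6 of 17 of complex V and none of the 4 assembly factors. All 12 lay above for Atp5g1 and Ndufaf4, against 11.1% of filtered genes. Among other probe sets of the genes called in medium, 32 of 35 differed in the same direction; a second probe set of Ndufa10 was at 0.00, against −0.62 for its main one.

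**Figure D3:**
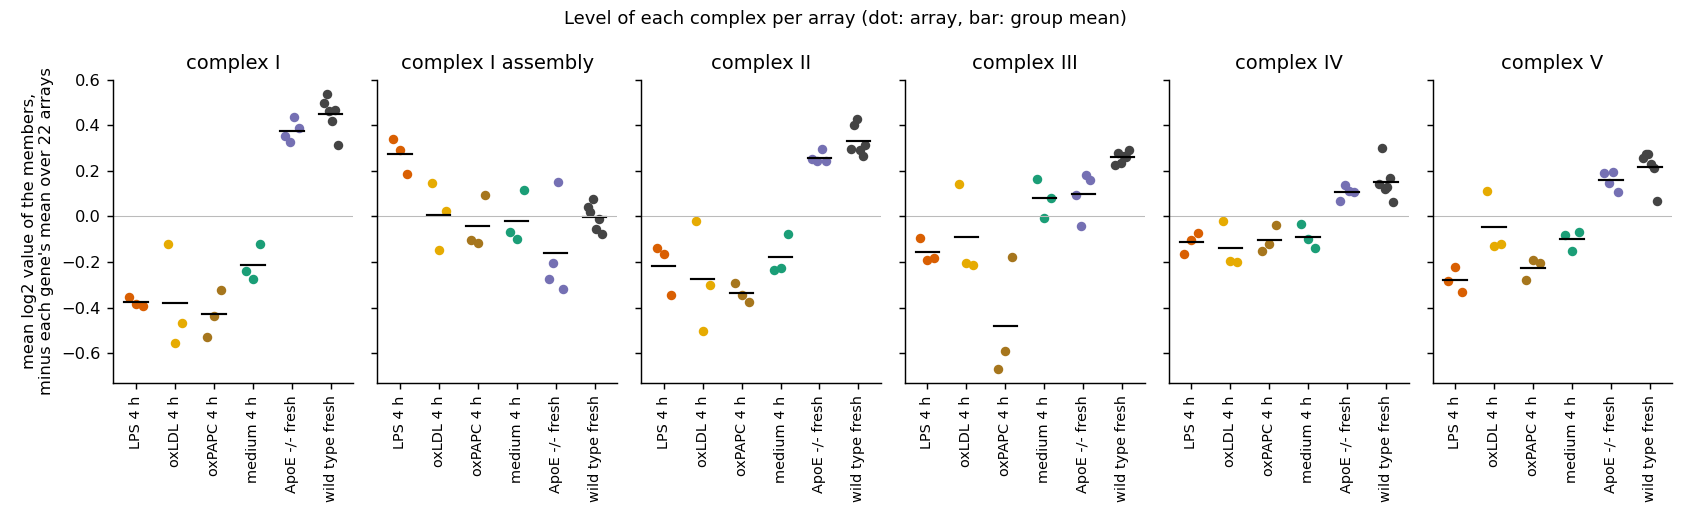
Mean log2 value of each complex's genes per array, after each gene's mean over 22 arrays was subtracted, with a dot per array and a bar per group mean. For complex I the medium arrays lie between −0.27 and −0.12 and the fresh wild-type arrays between 0.32 and 0.54; for complex III the oxPAPC arrays spread from −0.67 to −0.18.

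Markers of other cell types moved in the same comparison. Of 14 tested smooth muscle markers 12 were lower and none higher, and their mean level was 7.61 to 8.52 in medium, against 8.71 to 9.48 in fresh wild type. Of 11 tested macrophage markers 10 were higher and none lower (6.34 to 6.49 in medium, against 4.85 to 5.51 in fresh wild type). Of 17 endothelial markers 6 were higher and 3 lower. Of 7 fibroblast markers 2 were higher and 4 lower, of 8 erythroid and platelet markers 5 were lower, and no tested adipocyte or striated muscle marker was called. The part of these shifts in the oxidative phosphorylation values was not tested.

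Other mitochondrial genes, taken from lists by function, did not all follow. Of 14 tested tricarboxylic acid cycle genes 8 were lower and 3 higher (median −0.41 over 15), led by Idh2 (−1.78 ± 0.13). Of 21 complex assembly factors 10 were lower and 3 higher, including the copper chaperone Cox17 (−0.78 ± 0.11). Of 63 mitochondrial ribosome genes 21 were lower and 16 higher, shares close to those of all genes tested.

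Import, regulator and glycolysis genes had more rises than falls. Of 13 import and outer membrane genes 8 were higher and none lower, led by the chaperone Hspa9 (1.85 ± 0.11) and the receptor Tomm70a (1.56 ± 0.12). Of 7 nuclear regulators of respiratory genes 6 were higher, among them the coactivator Pprc1 (2.37 ± 0.18), while of 12 genes of mitochondrial DNA expression 4 were higher and 1 lower (median −0.02 over 14). In that list the transcription factor Tfam was higher at 1.33 ± 0.15 and the DNA-binding protein Ssbp1 lower at −0.85 ± 0.10. Of 22 hypoxia-inducible and glycolysis genes, a list that also holds the oxygen sensor Egln3 and the growth factor Vegfa, 17 were higher and 1 lower (median 1.28), among them the hexokinase Hk1 (2.56 ± 0.14) and the glucose transporter Slc2a1 (3.08 ± 0.19).

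The partners of the chain were split. Cytochrome c itself, Cycs, was higher at 1.16 ± 0.12, while Sqor, which feeds electrons from sulfide, was lower at −1.39 ± 0.11. Of 8 carriers and feeders 2 were higher and 4 lower. Of 5 genes of ATP export and ATP synthase inhibition, 1 of which (Atp5md) is also among the 83, 2 were higher and 2 lower: the exchanger Slc25a5 was higher (1.41 ± 0.19), and its muscle form Slc25a4 (−0.90 ± 0.15) and the synthase inhibitor Atpif1 (−1.09 ± 0.12) were lower.

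**Figure D4:**
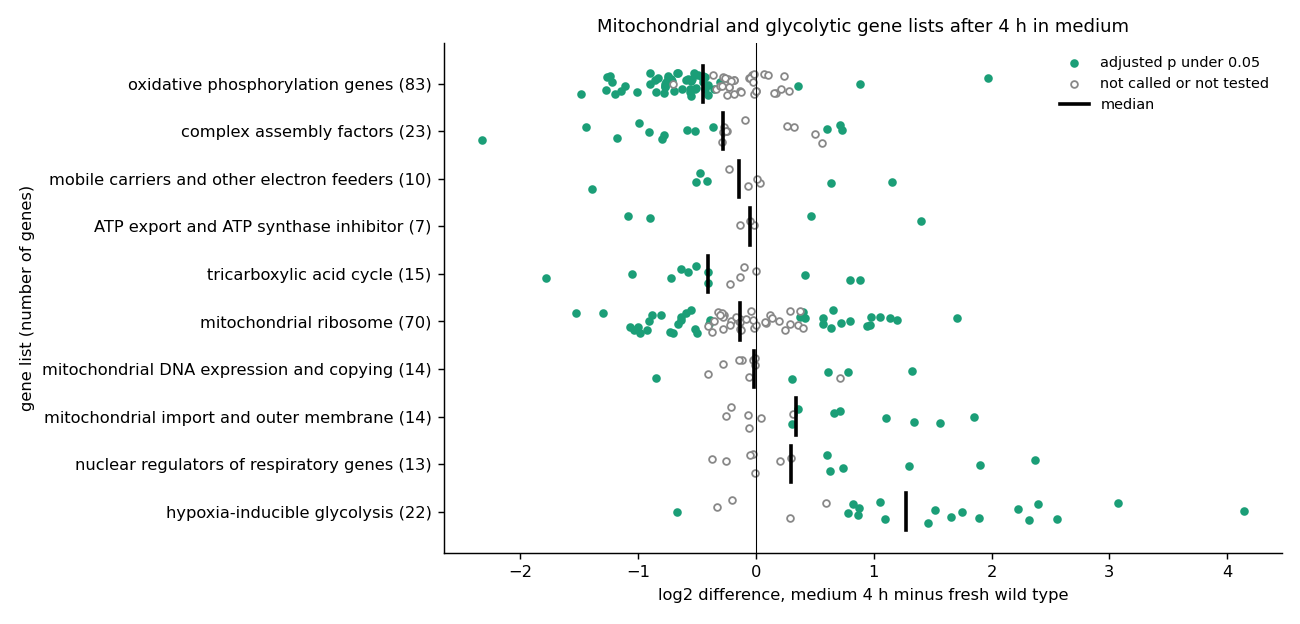
Log2 difference (medium for 4 h minus fresh wild type) of every gene in each list, filled where the adjusted p was under 0.05, with a bar at the list's median. The oxidative phosphorylation genes have a median of −0.45 and the hypoxia-inducible glycolysis genes one of 1.28.

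In fresh intima, ApoE -/- and wild-type mice differed in 1 of the 80 tested genes, a share of 1.25% against 0.427% of all 7264 genes tested (0.138% higher and 0.289% lower). Cox5a, a subunit of cytochrome c oxidase, had 8.02, 7.87, 7.91 and 8.15 in ApoE -/- intima, against 8.33, 8.60 and 8.77 (lowest, median and highest) in wild type. All ApoE -/- arrays were below all wild-type arrays, and the difference was −0.60 ± 0.11 (limma, adjusted p = 0.0417), or 66.1% of the wild-type level. Its other 2 probe sets differed by −0.41 and −0.45. The call was lost under cyclic loess (limma, adjusted p = 0.0649), with no filter and with all 22 arrays in 1 fit. It was also lost when any 1 of the 4 ApoE -/- arrays was left out (adjusted p = 0.0917 to 0.131), or wild-type replicate 7 (0.0983), 8 (0.0843), 13 (0.0960) or 14 (0.0572), while the difference stayed between −0.65 and −0.56.

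The other complexes had no call in this comparison, and the median over the 83 genes was −0.07, against −0.02 over all genes tested. In complex III, Uqcrq had 5.64, 5.69, 5.94 and 5.79 in ApoE -/- intima, against 5.98, 6.15 and 6.31 (lowest, median and highest) in wild type. Its groups did not overlap either, but it was not called (−0.38 ± 0.10, limma, adjusted p = 0.109). Another Uqcrq probe set, above the 40th percentile on 11 arrays, differed by 0.17. Its remaining probe sets, above it on none, differed by −0.10 and 0.03. Ndufab1 of complex I had −0.40 ± 0.15, Sdhb −0.14 ± 0.10, Atp5b −0.24 ± 0.11 and Ndufaf1 −0.21 ± 0.15. Cox6a2 had 0.33 ± 0.09 with no overlap of groups and no call (limma, adjusted p = 0.131). Smooth muscle markers averaged 9.36 to 9.53 in ApoE -/- intima and 8.71 to 9.48 in wild type with none of 14 called. Of 8 tested erythroid and platelet markers 1 was called, the platelet gene Ppbp, which was lower (−2.93 ± 0.53). Of 4 tested cardiac and skeletal muscle markers 1 was called, the cardiac gene Tnnt2, which was higher (1.39 ± 0.26). Differences in that list ran from −1.46 to 1.39. The part of all these markers in the values of the 83 genes was not tested. No gene of the other mitochondrial lists was called.

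LPS against medium gave 3 calls among 79 tested genes (3.80%), against 9.05% of all 7550 genes tested (3.36% higher and 5.68% lower). Ndufv2, an iron-sulfur core subunit of complex I, had 8.29, 8.36 and 8.34 with LPS, against 7.74, 7.49 and 7.64 in medium (0.71 ± 0.18, limma, adjusted p = 0.0371). Cox6a2 had 5.58, 5.42 and 5.61 with LPS, against 5.07, 5.03 and 4.82 in medium (0.57 ± 0.14, limma, adjusted p = 0.0302). Neither gene overlapped between groups, and fresh wild-type intima had 8.17 to 8.65 for Ndufv2 and 5.15 to 5.42 for Cox6a2. Atp5d, a stalk subunit of ATP synthase, had 7.64, 7.70 and 7.36 with LPS, against 8.27, 8.10 and 8.53 in medium (−0.73 ± 0.17, limma, adjusted p = 0.0265), but its second probe set differed by 0.01. Leaving out medium replicate 10 kept 1 call, and leaving out any other 1 of the 6 arrays (medium replicates 9 and 11, LPS replicates 3, 4 and 10) kept 0.

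OxLDL against medium gave 1 call among 79 tested genes (1.27%), against 2.81% of all genes tested (0.742% higher and 2.07% lower). Uqcrc2, a core protein of complex III, had 8.69, 8.32 and 8.48 with oxLDL, against 9.28, 8.96 and 9.12 in medium, with no overlap (−0.62 ± 0.14, limma, adjusted p = 0.0431). Its second probe set, above the 40th percentile on all 22 arrays, differed by −0.24. Atp5b, the catalytic subunit of ATP synthase, had 10.23, 10.10 and 10.51 with oxLDL, against 9.59, 9.50 and 9.48 in medium. The Atp5b groups were also apart, at 0.75 ± 0.20, without reaching the threshold (limma, adjusted p = 0.0588). Without oxLDL replicate 14 the count was 5, all lower, and without any other 1 of the 6 arrays (oxLDL replicates 15 and 16, medium replicates 9, 10 and 11) it was 0. Among markers, 1 of 17 endothelial, 1 of 13 macrophage, 2 of 7 fibroblast and 1 of 7 erythroid and platelet genes were lower with oxLDL. None of 14 smooth muscle genes was called, but all 14 were above 0 (median 0.63). Their mean level was 8.39 to 8.84 with oxLDL, against 7.61 to 8.52 in medium. The part of all these markers in the Uqcrc2 value was not tested.

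OxPAPC against medium gave 9 calls among 79 tested genes, 1 higher and 8 lower (11.4%), against 21.3% of all genes tested (8.34% higher and 12.9% lower). The lower genes came from complex I (Ndufa12, Ndufa11 and Ndufs1), its assembly (Ndufaf1), complex III (Uqcrfs1 and Cyc1), complex IV (Cox5b) and complex V (Atp5d). Ndufa11 was above the 40th percentile on 1 of the 3 oxPAPC arrays. The second probe set of Atp5d differed by −0.07, against −0.56 for its main one. The Atp5d call was lost under cyclic loess (limma, adjusted p = 0.066). Uqcrfs1, the Rieske iron-sulfur protein, had 5.85, 5.91 and 6.04 with oxPAPC, against 6.92, 6.69 and 6.35 in medium (−0.72 ± 0.19, limma, adjusted p = 0.0240). Cyc1, cytochrome c1, had 6.62, 6.73 and 7.35 with oxPAPC, against 7.53, 7.42 and 7.63 in medium (−0.62 ± 0.19, limma, adjusted p = 0.0366). Neither overlapped, and for Cyc1 oxPAPC replicate 13 stood nearest to medium.

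That array also stood apart for Uqcrq, which had 4.58, 4.66 and 6.30 with oxPAPC, against 6.66, 6.25 and 6.60 in medium. The groups overlapped and Uqcrq was not called (−1.32 ± 0.48, limma, adjusted p = 0.0674). Another Uqcrq probe set, above the 40th percentile on 11 arrays, differed by 0.04. Its remaining probe sets, above it on none, differed by 0.21 and −0.12. Without replicate 13 the oxPAPC comparison gave 15 calls, 1 higher and 14 lower. The share of all genes called without that array is not given, and whether the larger count is particular to these genes was not tested. Without any other 1 of the arrays it gave 1 to 3: 1 without medium replicate 9, medium replicate 11 or oxPAPC replicate 11, 2 without oxPAPC replicate 12 and 3 without medium replicate 10.

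Of the remaining oxPAPC calls, Cox5b had 9.62, 9.98 and 10.22 with oxPAPC, against 10.59, 10.46 and 10.56 in medium (−0.60 ± 0.17, limma, adjusted p = 0.0295). Ndufaf1 had 5.02, 4.92 and 4.37, against 5.55, 5.27 and 5.63 in medium (−0.71 ± 0.19, limma, adjusted p = 0.0245). Cox6a2 had 5.61, 5.36 and 5.35, against 5.07, 5.03 and 4.82 in medium (0.47 ± 0.14, limma, adjusted p = 0.0330). All 3 were free of overlap, and Cox6a2 was the gene higher with oxPAPC. LPS, oxLDL and oxPAPC share the same 3 medium arrays, and Cox6a2 had 0.57, 0.31 and 0.47 in these comparisons.

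Cell type markers moved with oxPAPC and LPS too. With oxPAPC, 10 of 14 smooth muscle markers were higher and none lower (mean level 8.74 to 9.13, against 7.61 to 8.52 in medium), 10 of 17 endothelial markers were lower and none higher (7.67 to 8.19, against 8.60 to 8.72), and 8 of 13 macrophage markers were lower. With LPS, 3 of 14 smooth muscle markers were higher (8.61 to 8.91), 5 of 17 endothelial markers were lower (8.04 to 8.49) and 4 of 13 macrophage markers were lower. Their part in the calls for the 83 genes was not tested. With oxPAPC, 12 of 64 mitochondrial ribosome genes were lower and 2 higher, while no assembly factor on the list was called. Of 12 tested genes of mitochondrial DNA expression 1 was lower, Tfam (−0.79 ± 0.16), and 1 was higher. Differences in that list ran from −0.86 to 1.89.

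**Figure D5:**
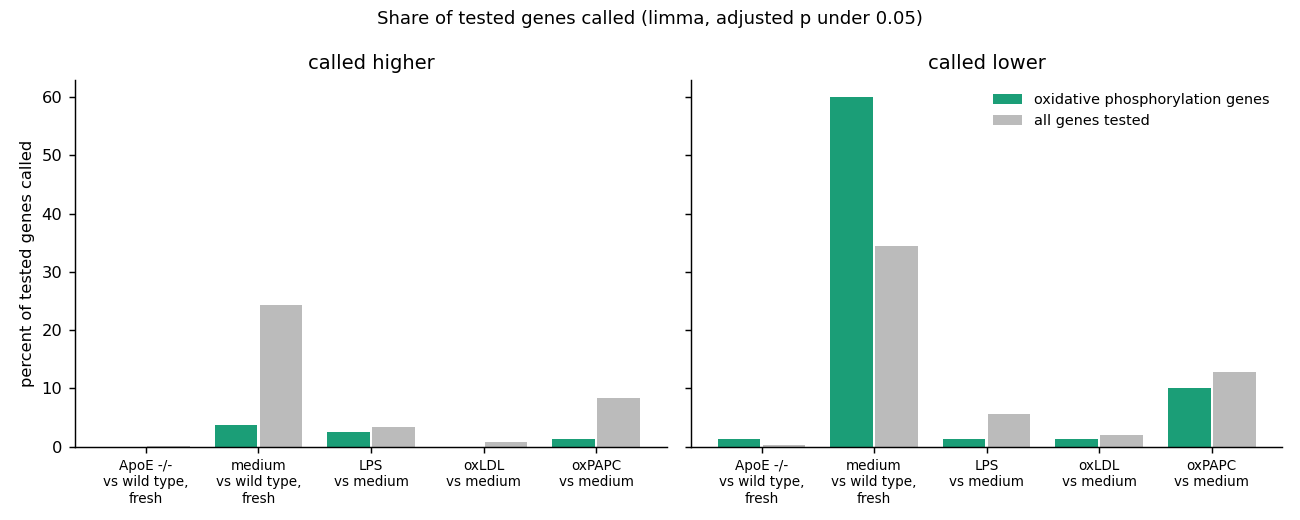
Percent of tested genes called higher (left) and lower (right) in each comparison, for the oxidative phosphorylation genes and for all genes tested. In medium against fresh wild type 60% of the oxidative phosphorylation genes were lower, against 34.4% of all genes. With cyclic loess 42 genes and with median centring 39 genes were lower instead of 48. Higher genes then made up 50.9% and 53.2% of all calls, against 41.4% as deposited. The share of all genes lower under these scalings is not given.

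The stimuli were also compared with each other. LPS against oxPAPC gave 1 call (1.27%), against 8.65% of all genes tested (4.69% higher and 3.96% lower). Ndufaf1 had 5.63, 5.67 and 5.79 with LPS, against 5.02, 4.92 and 4.37 with oxPAPC (0.93 ± 0.19, limma, adjusted p = 0.0141). Its groups did not overlap, and the call held when any 1 of the 6 arrays was left out (adjusted p up to 0.0489). Ndufaf1 was near background with oxPAPC: the 40th percentile lay between 4.58 and 4.71 on the arrays, and oxPAPC replicate 13 (4.37) was below it. The count in that comparison was 4 without oxPAPC replicate 13. LPS against oxLDL gave 1 call, against 5.07% of all genes tested (2.21% higher and 2.86% lower). The accessory complex I gene Ndufb5 had 8.84, 9.15 and 9.10 with LPS, against 9.78, 9.63 and 9.59 with oxLDL (−0.64 ± 0.15, limma, adjusted p = 0.0282). That call was lost without any 1 of the 6 arrays (LPS replicates 3, 4 and 10, oxLDL replicates 14, 15 and 16; adjusted p = 0.0555 to 0.0971), and without oxLDL replicate 14 2 other genes were called.

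OxPAPC against oxLDL gave 8 calls, 1 higher and 7 lower, a share of 10.1% against 12.4% of all genes tested (4.57% higher and 7.8% lower). Ndufc1 had 8.67, 8.77 and 9.11 with oxPAPC, against 8.44, 7.80 and 7.56 with oxLDL, with no overlap (0.92 ± 0.22, limma, adjusted p = 0.0194). Against medium, its main probe set differed by 0.25 with oxPAPC and −0.67 with oxLDL. Its second probe set, above the 40th percentile on 10 arrays, differed by −0.35 and −0.41. Atp5b had 9.60, 9.53 and 9.19 with oxPAPC, against 10.23, 10.10 and 10.51 with oxLDL, also with no overlap (−0.84 ± 0.20, limma, adjusted p = 0.0179). Ndufaf1 (−0.88 ± 0.19), Uqcr10 (−0.77 ± 0.18), Cyc1 (−0.63 ± 0.19), Ndufb9 (−0.58 ± 0.16), Ndufa11 (−0.53 ± 0.15) and Ndufb5 (−0.52 ± 0.15) were lower with oxPAPC. The count was 12 without oxPAPC replicate 13, 5 without oxLDL replicate 14, 3 without oxLDL replicate 15 or oxPAPC replicate 11, 2 without oxPAPC replicate 12 and 1 without oxLDL replicate 16. Markers moved between stimuli too. Of 17 endothelial markers 6 were lower and none higher with oxPAPC than with oxLDL (mean level 7.67 to 8.19 with oxPAPC, against 8.29 to 8.58 with oxLDL), 4 were higher and 1 lower with LPS than with oxPAPC, and 1 was higher and 2 lower with LPS than with oxLDL. No smooth muscle marker was called between stimuli, and the part of these markers in the calls was not tested.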

How the data were processed

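The deposited values are log2 signals of 22 arrays, which the authors computed with affy's RMA (per the submitters' processing notes; versions are not given in the sources used here). RMA corrects background, quantile normalizes and summarises probe sets, so a change common to most transcripts is hidden. Probe sets were named through the platform annotation and RefSeq (GRCm38.p6, names and promoters); 17977 of 22626 matched. Groups were taken from the labels, which give no batch. A gene was tested if it exceeded its array's 40th percentile on a number of arrays equal to the smallest group or more. Two-sided tests used limma 3.58.1 under R 4.3.3 (lmFit and eBayes); p-values were adjusted by Benjamini-Hochberg over every tested gene, with calls at an adjusted p under 0.05. The fits held 10 fresh arrays, 9 arrays for medium against fresh wild type, and the 12 incubated arrays together. Every ± is a standard error of these fits on the log2 scale. The small number of arrays limits precision. The fits were tested on simulated data. Alternatives were other scalings, filters, probe set choices, sample sets, a variance trend and leaving out each array. Genes named with values were, by rule, up to 6 largest rises and falls per comparison, the smallest p of each complex, paired isoforms and up to 3 genes of each list; others were chosen after their values were seen. The genes and lists were chosen with earlier results of these data known.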

Additional observations from a re-analysis of the deposited data

Results flagged for a closer look

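In 4 groups of a gene, 1 array lay far from the others by Dixon's criterion; chance alone marks about 1 in 20 groups, and 56 groups were examined, the 2 fresh groups for each of 28 named genes. Ndufa3 was 7.78 in ApoE -/- replicate 4, against 8.28 to 8.37 in the other ApoE -/- arrays. Sdhc was 7.65 in the same array, against 7.89 to 7.92 in the others. In fresh wild type, Sdhc was 8.13 in replicate 12, against 7.76 to 7.81 in the other arrays. Uqcr11 was 5.10 in ApoE -/- replicate 6, against 4.85 to 4.89 in the others.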

How the results depend on the processing

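No paired analysis was possible because the groups compared share fewer than 2 replicate numbers. For medium against fresh wild type the 51 calls became 45 to 51 with 1 array left out, and 35 of the 51 were called under every alternative. No gene called among the 83 changed sign under any alternative. Uncalled genes near 0 did: in medium against fresh wild type 12 of them, 8 under cyclic loess or median centring. Among the isoform genes, Cox4i2 became 0.063 (cyclic loess) and 0.022 (median centring) in medium against fresh wild type. Without probe sets of less specific design (_x_at, _s_at), Cox8a became −0.043 with LPS and −0.21 with oxPAPC against medium, and with the mean of all probe sets −0.063 with oxPAPC. Cox6b1 with oxPAPC against medium became 0.0022 (median centring) and 0.010 (mean of all probe sets), and Cox7a2 in LPS against oxPAPC −0.038 and −0.053. With 1 array left out, values that crossed 0 were, against medium, Cox6b1 with oxLDL (−0.063 to 0.18) and, with oxPAPC, Ndufa4 (−0.11 to 0.11), Cox6a1 (−0.16 to 0.0049) and Cox6b1 (−0.20 to 0.069). In LPS against oxLDL they were Cox4i2 (−0.067 to 0.065), Ndufa4 (−0.28 to 0.10), Cox6a1 (−0.030 to 0.15) and Cox6b1 (−0.042 to 0.20), in LPS against oxPAPC Cox4i1 (−0.14 to 0.044) and Cox7a2 (−0.017 to 0.022), and in oxPAPC against oxLDL Cox6b1 (−0.26 to 0.013). Counts with an array left out or under other settings, here and above, stand without the share of all genes called in that fit. Whether their changes are particular to these genes was not tested. For ApoE -/- against wild type the count of 1 became 0 under cyclic loess, with no filter and with all 22 arrays in 1 fit, and 0 to 1 with 1 array left out. For LPS against medium the count of 3 became 1 with the mean of all probe sets and 0 to 1 with 1 array left out. For oxLDL against medium the count of 1 became 0 with median centring, the mean of all probe sets or only the 2 groups, 2 with the 60th percentile filter or a variance trend, 6 with all 22 arrays, and 0 to 5 with 1 array left out. For oxPAPC against medium the count of 9 became 15 with all 22 arrays, 2 with only the 2 groups, and 1 to 15 with 1 array left out. For LPS against oxLDL the count of 1 became 3 with cyclic loess, median centring or the 60th percentile filter, 2 with no filter, 0 with the mean of all probe sets or only the 2 groups, 8 with all 22 arrays, 4 with a variance trend, and 0 to 2 with 1 array left out. For LPS against oxPAPC the count of 1 became 0 with the 60th percentile filter, 3 with the mean of all probe sets, 2 with all 22 arrays, and 1 to 4 with 1 array left out. For oxPAPC against oxLDL the count of 8 became 14 with all 22 arrays, 1 with only the 2 groups, and 1 to 12 with 1 array left out. Of the genes called in the comparisons of ApoE -/- with wild type and of each stimulus with medium, 0 were called under every alternative. The causes were not tested. Signals near the 40th percentile, as for Atp5g1, Uqcr11, Ndufaf3 and, with oxPAPC, Ndufa11 and Ndufaf1, limit what a difference shows.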
